A study of Caenorhabditis elegans with 12 samples.

Results

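The col- genes of Caenorhabditis elegans encode cuticle collagens, and 97 of them are described here among 10385 genes measured on Affymetrix expression arrays. A gene was included when its symbol in the array's annotation began with col- and a digit, and the brightest of its single-gene probe sets had a mean log2 signal over all arrays above 6.25 (a signal of 76.0). The annotation gave 128 such genes a probe set of their own, of which 31 lay below that level, among them col-40 and col-99. The genes just inside the limit were col-131 with a mean log2 signal of 6.33, col-172 with 6.35 and col-69 with 6.42, and those just outside were col-51 with 6.22, col-116 with 6.10 and col-177 with 6.07. A further 20 col- genes, such as col-7, col-10, col-13 and col-62, were named only on probe sets shared with another gene. In 13 of the 97, at least 1 group mean lay below the limit, so those genes passed through their higher groups. All of these but col-123 lay below it in wild type on spg-7 RNAi.

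The nematode cuticle is an extracellular coat made by the hypodermis, and most of its protein is collagen. Each larval stage ends with a moult in which a new cuticle is made under the old one, and collagen genes are transcribed in waves that recur with each moult. Many col- genes are used at particular stages, and some are known for the dauer larva or for the adult cuticle. Their products are hydroxylated by prolyl 4-hydroxylase, folded in the endoplasmic reticulum, trimmed by proteases and crosslinked outside the cell.

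The arrays came from 4 groups of 3: wild type in the N2 background and worms with the atfs-1 allele tm4525, each fed control RNAi or spg-7 RNAi bacteria. All were whole worms, synchronised by bleaching, raised in liquid and collected at L4, the last larval stage before the moult to the adult. ATFS-1 is a transcription factor that responds to unfolded proteins in mitochondria, and SPG-7 is a protease of the inner mitochondrial membrane whose knockdown stresses mitochondria. The question the title of the series poses is which transcription ATFS-1 carries under such stress, and the collagens are compared between the RNAi treatments in each genotype and between the genotypes on each RNAi.

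The median signal of an array was 112 to 159. Replicates correlated across probe sets with a Pearson's r of 0.867 to 0.920 in wild type and of 0.922 to 0.946 in the mutant. The signal of spg-7 itself was higher on the spg-7 RNAi arrays, at 14356 ± 7577 against 753 ± 302 (SD, n = 3) in wild type and 17958 ± 8123 against 383 ± 68.5 (SD, n = 3) in the mutant, so it does not show a knockdown. Directions below follow the labels: with the RNAi labels exchanged the sign of every RNAi difference would turn. The spg-7 probe set may instead read the spg-7 RNA made by the fed bacteria, which would leave the labels as they are. Which holds was not tested. hsp-6 and hsp-60, mitochondrial chaperones used as reporters of this stress, did not rise at the threshold. The hsp-6 signal in wild type was 4076 ± 1366 against 5458 ± 1692 (SD, n = 3) with a difference of 0.44 (adjusted p = 0.447), and in the mutant the difference was 0.23 (adjusted p = 0.782). The hsp-60 signal went from 5035 ± 389 to 3777 ± 1560 in wild type and from 3252 ± 223 to 2587 ± 273 in the mutant (SD, n = 3), lower in mean and not called (adjusted p = 0.323 and 0.696). The labels call the arrays biological replicates. Whole worms mix tissues, and in such RNA fewer hypodermal cells and less collagen RNA per cell cannot be told apart.

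Yolk protein genes, which the adult intestine expresses, stood low on 3 arrays. The median log2 signal of 5 measured yolk genes was 6.46 on wild-type control array 1, 11.89 on wild-type spg-7 RNAi array 1 and 10.95 on mutant spg-7 RNAi array 2, and between 13.01 and 14.61 on the other 9. Within wild type on control RNAi, vit-2 had a signal of 4.96 on array 1 and of 7794 and 5402 on arrays 2 and 3. Without these 3 arrays the median collagen difference was -1.04 in wild type and -0.04 in the mutant.

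In wild type, 9 of the 97 collagens were lower on spg-7 RNAi and none was higher at an adjusted p under 0.05. That is 9.28% of the collagens, while of all genes tested 1.43% were called lower, 3.29% higher and 4.73% in either direction. At an unadjusted p under 0.05 there were 40 members (41.2%) against 20.1% of all genes. The median log2 difference of the 97 was -0.97, against -0.04 for all genes, and 78 of the 97 had a negative difference. In 38 of the 97 the 3 spg-7 RNAi arrays all lay below the 3 control arrays, which held for 8.48% of all genes. In none did they all lie above, which held for 9.99% of all genes. These counts include members, such as col-89 and col-186, below the inclusion limit in wild type on spg-7 RNAi. Such members passed through their higher groups, so the counts are a description only. Adjusted p-values here and below are limma's, with the Benjamini-Hochberg adjustment over all 10385 genes.

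The members that fell furthest were col-156 and col-89. In wild type, col-156 had signals of 4333, 2968 and 3999 on control RNAi against 1308, 694 and 471 on spg-7 RNAi. All 3 spg-7 RNAi arrays lay well below all 3 control arrays, and the difference was -2.30 on the log2 scale (SE 0.55, adjusted p = 0.0349), a 4.94-fold decrease. In the mutant the same gene had 5691, 3596 and 1231 on control RNAi against 4207, 1676 and 1928 on spg-7 RNAi. Here the groups overlapped, because control array 3 was the lowest of the 6, and the difference was -0.30 (SE 0.55, adjusted p = 0.849).

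For col-89 the wild-type signals were 206, 396 and 582 on control RNAi against 65.3, 105 and 61.8 on spg-7 RNAi. The groups did not overlap, and the gene fell by 2.27 on the log2 scale (SE 0.56, adjusted p = 0.0431). The mutant had 776, 1183 and 216 on control RNAi against 589.7, 745 and 546 on spg-7 RNAi, with a difference of 0.09 (SE 0.56, adjusted p = 0.955). The lowest array of the mutant was again control array 3, and without it the mutant difference was -0.62. The mean log2 signal of wild type on spg-7 RNAi, 6.23, lay below the inclusion limit of 6.25, so the gene passed through its other groups and the size of its decrease is uncertain.

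col-149 and col-182 had the smallest adjusted p-values. The wild-type signals of col-149 were 6211, 2001 and 3148 on control RNAi against 614, 1153 and 791 on spg-7 RNAi. Control array 1 was far above arrays 2 and 3, yet every control array exceeded every spg-7 RNAi array, and the difference was -2.04 (SE 0.37, adjusted p = 0.0101). Without the 3 arrays low in yolk signal it was -1.39 (adjusted p = 0.0333). In the mutant, col-149 had 2610.2, 2265 and 3373 on control RNAi against 1338, 1256 and 1559.6 on spg-7 RNAi. These groups did not overlap either, with a difference of -0.98 (SE 0.37) that missed the threshold (adjusted p = 0.406).

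col-182, which RefSeq lists as a pseudogene, had 1682, 1006 and 1903 on wild-type control RNAi against 534, 594 and 582 on spg-7 RNAi. The spg-7 RNAi arrays lay close together below all controls, and the signal fell by 1.38 on the log2 scale (SE 0.27, adjusted p = 0.0137). The mutant arrays ran from 928 to 1316 on control RNAi against 997 to 1377 on spg-7 RNAi, with a difference of 0.11 (adjusted p = 0.884). Another member listed as a pseudogene, col-66, was not called in any comparison.

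col-49 is one of the collagens described for the L4 stage, together with col-38, col-63 and col-138. Its wild-type signals were 6075, 5619 and 11370.0 on control RNAi against 2259, 2777 and 1965 on spg-7 RNAi. Every spg-7 RNAi array was below every control array, and the gene fell by 1.66 on the log2 scale (SE 0.38, adjusted p = 0.0303). The mutant had 8763, 9237 and 3354 on control RNAi against 6647, 7363 and 5857 on spg-7 RNAi, a difference of 0.03 (adjusted p = 0.981) that was -0.45 without mutant control array 3.

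The other L4 collagens missed the threshold in wild type. col-38 had signals of 14673, 11169 and 16820.4 on control RNAi against 6238, 8209 and 4249 on spg-7 RNAi, a difference of -1.22 (adjusted p = 0.0939). The difference of col-138 was -1.47 (adjusted p = 0.0893) and that of col-63 was -1.49 (adjusted p = 0.133). In all 3 genes the 2 wild-type groups did not overlap, and in the mutant their differences were 0.35, 0.28 and 0.50. Without mutant control array 3 these were -0.12, -0.28 and -0.10. That array was the lowest of its group in all 3 genes, so leaving it out moves these differences downward by construction.

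Of the remaining called members, col-180 had 9855, 3954 and 6283 on control RNAi against 2605, 1639 and 769 on spg-7 RNAi in wild type. It fell by 2.07 (SE 0.51, adjusted p = 0.0393), and the groups did not overlap. col-186 had low signals, with 205, 142 and 200.2 on control RNAi against 17.3, 52.7 and 79.5 on spg-7 RNAi. Its groups did not overlap either, its difference was -2.11 (SE 0.53, adjusted p = 0.0463), and spg-7 RNAi arrays 1 and 2 lay below the inclusion limit of 76.0. The mean log2 signal of wild type on spg-7 RNAi was 5.38, so col-186 passed through its higher groups. The size of its decrease is uncertain, and with 32 added before log2 the difference was -1.45 (adjusted p = 0.0335).

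col-71 and col-130 were measured on probe sets marked s, which may pick up related transcripts. col-71 had 10673, 12726 and 20057 on control RNAi against 4068, 5889.7 and 2851 on spg-7 RNAi, and fell by 1.77 (SE 0.43, adjusted p = 0.0362). col-130 had 2929, 2775 and 4498 on control RNAi against 1156, 1076 and 509 on spg-7 RNAi, and fell by 1.95 (SE 0.49, adjusted p = 0.0448). In both, all spg-7 RNAi arrays lay below all controls, and the mutant differences were 0.30 and -0.04. That of col-71 was -0.22 without mutant control array 3, the lowest mutant array for this gene.

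**Figure D1:**
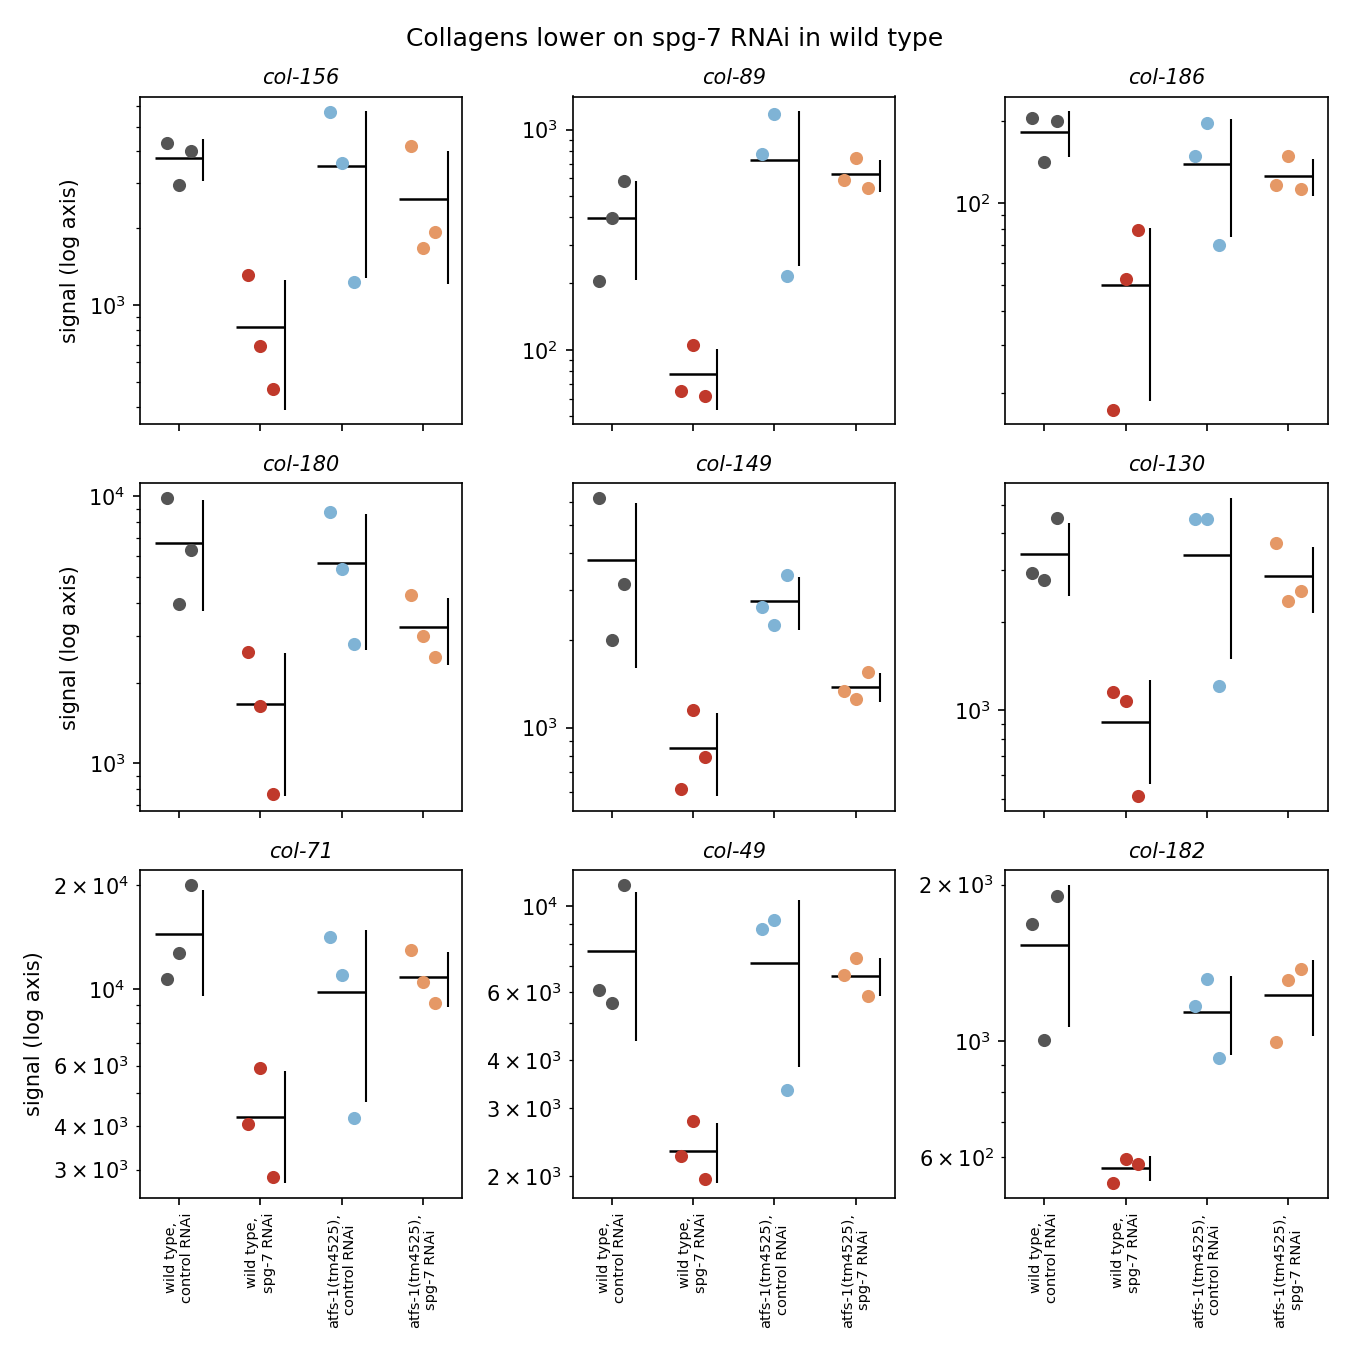
Signal on each array (points, log axis) of the 9 collagens called lower on spg-7 RNAi in wild type, by group, with the mean (horizontal line) and SD (vertical line) of 3 arrays. In every panel the 3 wild-type spg-7 RNAi points lie below the 3 wild-type control points, while in the mutant the groups overlap except in col-149.

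The count of 9 depended on which arrays entered the fit. A fit to the 6 wild-type arrays alone called none of the 97 (84 genes called in all), and leaving out 1 array at a time gave between 1 (without wild-type control array 3) and 18 (without mutant control array 3), with col-149 called each time. Without the 3 arrays low in yolk signal 14 were called lower, 4 of them among the 9. The shares of all genes called in the fits with arrays left out are not given here. At an unadjusted limma p under 0.05 there were 45 members, against 19.3% of all genes, without mutant control array 3. Without the 3 arrays low in yolk signal there were 51, against 21.9%.

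In the atfs-1 mutant, no collagen passed the threshold in either direction, where 1.17% of all genes did (0.221% lower and 0.944% higher). At an unadjusted p under 0.05 there were 5 members, 5.15% of the 97, against 9.47% of all genes. The median difference of the collagens was -0.04, with 52 negative and 45 positive. In 11 members the spg-7 RNAi arrays all lay below the controls (12.7% of all genes) and in 5 they all lay above (13.1%). A fit to the 6 mutant arrays alone called 1 member, col-149, lower (adjusted p = 0.0444). Same-numbered mutant arrays deviated together, with correlations of 0.29 to 0.53, and a fit to the mutant arrays with the replicate number as a block, added after seeing the data, called 11 of the 97 (8 lower and 3 higher). That is 11.3% of the collagens, where 11.3% of all genes were called (5.08% lower and 6.17% higher), a share near the background. The block leaves 2 residual degrees of freedom.

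The members called lower in the blocked fit to the mutant arrays were col-101, col-142, col-137, col-149 and col-150, and col-19, col-8 and col-181 of the set that follows col-19, with differences of -2.31 to -0.98. Those called higher were col-110, col-176 and col-90, at 1.55, 1.28 and 1.15 (adjusted p = 0.0069, 0.00881 and 0.0266). With the block in the fit to all 12 arrays, none of the 97 was called in the mutant.

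Set side by side, 35 members had a negative difference in both genotypes and 43 a negative difference in wild type with a positive one in the mutant. Another 17 were positive in wild type and negative in the mutant, and 2, col-98 and col-103, were positive in both. This split rests in part on mutant control array 3. That array was the lowest of its group for 79 members, so leaving it out moves most mutant differences downward by construction. Without that array, 66 members were negative in both genotypes, 12 were negative in wild type and positive in the mutant, and the median mutant difference was -0.47, against -0.03 for all genes. Without the 3 arrays low in yolk signal the same counts were 44 and 43. Mutant spg-7 RNAi array 2, the lowest of its group for 49 members, was not left out alone for these counts. The counts without mutant control array 3 are therefore a description only. The wild-type signals of col-98 were 6993, 7335 and 3513 on control RNAi against 8943, 8641 and 5788 on spg-7 RNAi. These groups overlapped, and the difference of 0.44 was not called (adjusted p = 0.589).

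**Figure D2:**
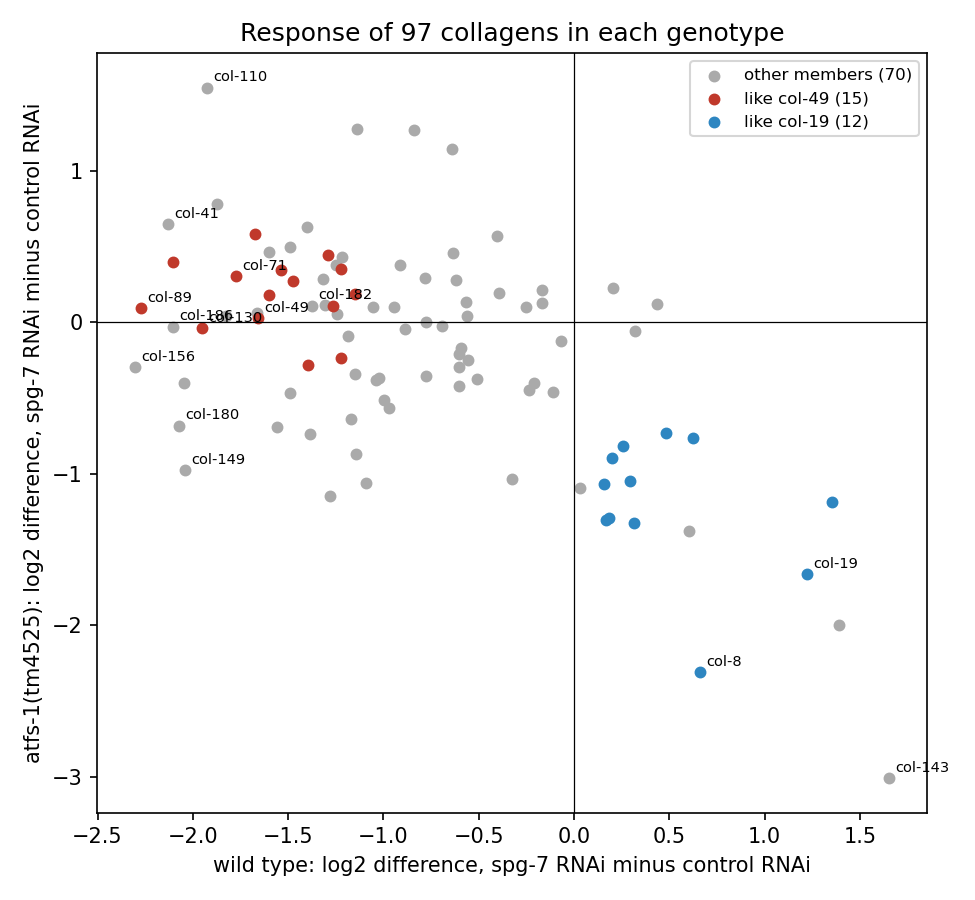
Each point is 1 of the 97 collagens, with its log2 difference between spg-7 RNAi and control RNAi in wild type (x axis) and in atfs-1(tm4525) (y axis). Red points follow col-49 and blue points follow col-19 across the arrays (Pearson's r of at least 0.9). Both sets were chosen on these same arrays, so that members of a set lie together follows in part from the choice. The red points lie between -2.27 and -1.15 in wild type and the blue points between -2.31 and -0.73 in the mutant.

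The difference between the 2 responses, the interaction of genotype and RNAi, was not called for any collagen, and 0% of all genes passed. At an unadjusted p under 0.05 there were 26 members, 26.8% of the 97, against 6.23% of all genes. The median interaction was 0.81 on the log2 scale for the collagens and -0.01 for all genes, and 74 of the 97 were positive (mutant response above wild-type response). Without mutant control array 3 the median interaction of the collagens was 0.46 and 13 had an unadjusted p under 0.05. Without the 3 arrays low in yolk signal these were 1.08 and 29. Mutant control array 3 was the lowest of its group for most collagens, so the lower median without it follows in part from that. The smallest adjusted p over all arrays was 0.573, so the absence of calls in the mutant beside 9 in wild type does not show that the 2 genotypes responded differently.

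The mean of the responses in both genotypes called 2 collagens lower, 2.06% of the 97, while of all genes 2.16% were called lower, 4.97% higher and 7.13% in either direction. They were col-149 at -1.51 (SE 0.26, adjusted p = 0.00517) and col-180 at -1.38 (SE 0.36, adjusted p = 0.0406). For col-180 the mutant signals were 8723, 5363 and 2809 on control RNAi against 4257, 2990.1 and 2505 on spg-7 RNAi, where the groups overlapped and each spg-7 RNAi array was below the control array of its number. With the replicate number as a block in the fit to all arrays 4 were called, col-149, col-180, col-156 and col-39. The share of all genes called in that blocked fit is not given here, so this count does not single out the collagens. At an unadjusted p under 0.05 there were 20 members (20.6%) against 22.5% of all genes.

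On control RNAi, mutant and wild type differed in no collagen at the threshold, and 0% of all genes passed. At an unadjusted p under 0.05 there were 3 members against 10.7% of all genes. The median difference was -0.12 for the collagens, and 0.24 without mutant control array 3. That array was the lowest of its group for most collagens, so the rise without it follows in part from that. The mutant arrays all lay above wild type in 2 members (11.8% of all genes) and all below in none (5.79%). One of the 2 was col-132, with 48.2, 84.4 and 256 in wild type and 412, 749.6 and 261 in the mutant. Wild-type array 3 almost reached mutant array 3, and the difference of 2.09 missed the threshold (SE 0.63, adjusted p = 0.434).

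On spg-7 RNAi most collagens had a higher mean in the mutant, and none was called. The median difference was 0.74 for the 97 and 0.00 for all genes, and 79 of the 97 were positive. In 40 members every mutant array exceeded every wild-type array, which held for 15.7% of all genes, and in 2 every mutant array was lower (7.29%). The 79 and the 40 include members below the inclusion limit in wild type here, which passed through their higher groups. These counts are therefore a description only. None of the 97 passed an adjusted p under 0.05, where 0.0963% of all genes did (0.0867% lower and 0.00963% higher), and 40 (41.2%) had an unadjusted p under 0.05 against 15.4% of all genes. This comparison shares the wild-type spg-7 RNAi arrays with the wild-type response, so the 2 are not independent. Markers of the germ line and of moulting also lay apart here. All 23 sperm genes had a positive difference (median 1.01), with 21 of them not overlapping, as all 23 had on control RNAi (median 1.03). All 18 oocyte and embryo markers had a negative one (median -1.04), and 48 of 52 moulting genes a positive one (median 0.94), with 22 not overlapping. None of these was called, and their part in the collagen differences was not tested.

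Of the 7 members with the largest positive differences, 6 had a wild-type mean below the inclusion limit: col-89, col-33, col-148, col-132, col-64 and col-69. Those 6 passed through their higher groups, so the sizes and the order of their differences are uncertain. col-89 had a difference of 3.05 (SE 0.56, adjusted p = 0.0804). The signals were 65.3, 105 and 61.8 in wild type and 589.7, 745 and 546 in the mutant. col-33 had 48.7, 54.9 and 9.96 in wild type and 238, 350.1 and 172 in the mutant, a difference of 3.02 (SE 0.74, adjusted p = 0.126). In both genes the lowest mutant array was well above the highest wild-type array.

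col-148 and col-174 had the same arrangement. col-148 had 31.6, 101 and 61.0 in wild type and 478, 292 and 318 in the mutant, a difference of 2.61 (SE 0.56, adjusted p = 0.115). col-174 had 259.7, 367 and 150.1 in wild type and 1186, 1841 and 853 in the mutant, a difference of 2.34 (SE 0.53, adjusted p = 0.126). Without wild-type control array 1, 11 members passed, all higher in the mutant. That array is in neither group and acts through the shared estimate of the spread. Without the 3 arrays low in yolk signal 5 members passed. The shares of all genes called in these fits are not given here. At an unadjusted limma p under 0.05 the fit without the 3 arrays had 46 members, against 19.5% of all genes.

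Over the 4 group means, 65 of the 97 collagens were lowest in the wild-type spg-7 RNAi group, where this held for 32.3% of all genes, and 41 were highest in wild type on control RNAi, against 25.1%. The 65 include members, such as col-33, that lay below the inclusion limit in that group and passed through their others. The median log2 signal of the 97 was 10.43, 12.05 and 11.97 on the wild-type control arrays and 10.47, 10.99 and 10.06 on wild-type spg-7 RNAi. The mutant medians were 12.13, 11.92 and 11.30 on control RNAi against 11.86, 10.95 and 11.54 on spg-7 RNAi. Wild-type control array 1 and mutant spg-7 RNAi array 2, both low in yolk signal, were the lowest of their groups in this median.

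Single arrays were low for many members at once. Mutant control array 3 was the lowest of its group for 79 of the 97 collagens, against 38.8% of all genes. Wild-type spg-7 RNAi array 3 was the lowest of its group for 59, against 48.0%. Among the wild-type control arrays, array 2 was the lowest for 56, against 39.9%. Array 3 of that group was the lowest for 4, against 26.6%, and the highest for 46, against 24%. The control probe sets for actin gave a log2 ratio of 3' over 5' signal, which is higher in degraded RNA, of 0.53 ± 0.10 in wild type on control RNAi against 0.84 ± 0.01 on spg-7 RNAi (SD, n = 3). The mutant ratios were 0.44 ± 0.04 and 0.61 ± 0.07 (SD, n = 3). This ratio moved with the RNAi treatment, and its part in the collagen differences was not tested.

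**Figure D3:**
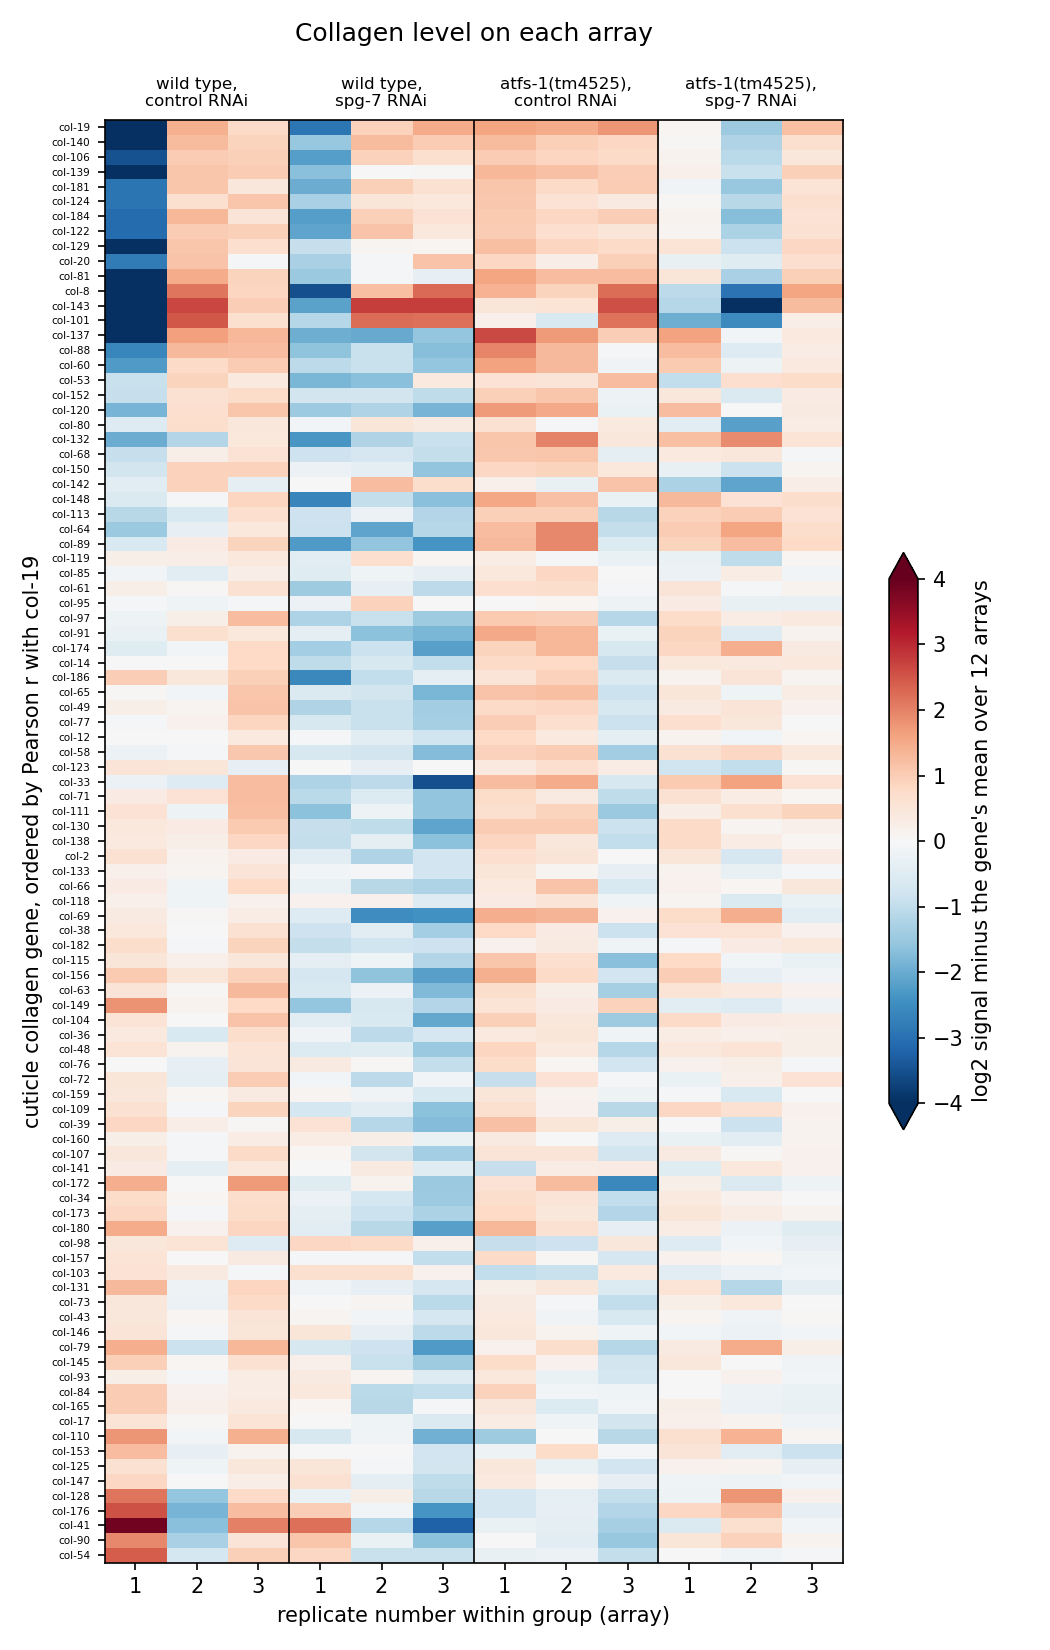
Log2 signal of each of the 97 collagens (rows, ordered by Pearson's r with col-19) on each of the 12 arrays (columns, by group), minus the mean of the gene over the 12 arrays. Colour runs from -4 (blue) to 4 (red); the top rows are low on wild-type control array 1, wild-type spg-7 RNAi array 1 and mutant spg-7 RNAi array 2, and much of the middle is low on wild-type spg-7 RNAi and on mutant control array 3.

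A pair of collagen sets moved together over the 12 arrays, described here with a limit of r = 0.9 chosen after the values had been seen. The first followed col-19, a collagen of the adult cuticle that is switched on at the last moult, and held col-140, col-106, col-139, col-181, col-124, col-184, col-122, col-129, col-20, col-81 and col-8. Their Pearson's r with col-19 was 0.944 to 0.980 and their Spearman's rho 0.559 to 0.888. Without wild-type control array 1 and wild-type spg-7 RNAi array 1, r was 0.760 to 0.958. Arrays share their scaling, and several of these genes are on probe sets that can bind more than 1 transcript, so these are descriptions only.

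col-19 itself had signals of 29.9, 6653 and 4190.2 in wild type on control RNAi against 333, 4667 and 6839.8 on spg-7 RNAi. The mutant had 7318, 6817 and 8449 on control RNAi against 2625, 901 and 5608 on spg-7 RNAi. Its 3 lowest arrays were the 3 with low yolk signal, and the groups overlapped in wild type, with a difference of 1.22 (SE 1.73, adjusted p = 0.762). In the mutant all spg-7 RNAi arrays lay below all controls, with a difference of -1.66 (SE 1.73, adjusted p = 0.752). Without the 3 arrays low in yolk signal the differences were 0.10 and -0.97.

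The col-19 set as a whole had median log2 signals of 8.70, 13.89 and 13.44 on the wild-type control arrays and of 10.71, 13.38 and 13.26 on wild-type spg-7 RNAi. In the mutant they were 13.81, 13.55 and 13.68 on control RNAi against 12.84, 11.35 and 13.26 on spg-7 RNAi. None of its 12 genes was called in any of the 6 comparisons in the fit to all arrays without a block. Without the 3 arrays low in yolk signal the median difference of the set went from 0.30 to -0.17 in wild type and from -1.13 to -0.59 in the mutant. On the other 9 arrays col-139 and col-81 were called lower in wild type, at -1.04 (adjusted p = 0.0452) and -1.37 (adjusted p = 0.0211), where all arrays gave 0.16 and 0.17. Over all arrays, the wild-type differences of the set ran from 0.16 to 1.35 and the mutant differences from -2.31 to -0.73. The yolk gene medians were lowest on the same arrays, and the part of the stage of the worms in these differences was not tested.

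col-143, just short of the set with an r of 0.83, had the widest spread within a group, 7.92 on the log2 scale, ahead of col-19 with 7.80 and col-8 with 7.20. Its signals were 29, 7026 and 2178 in wild type on control RNAi against 249, 7458 and 7446 on spg-7 RNAi, which overlap. The narrowest within-group ranges were those of col-118 with 0.69, col-159 with 0.73 and col-133 with 0.81, and none of these 3 was called in any comparison.

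The second set followed col-49 and held col-14, col-97, col-130, col-77, col-71, col-38, col-138, col-89, col-58, col-174, col-65, col-111, col-61 and col-33. Pearson's r with col-49 was 0.905 to 0.966 and Spearman's rho 0.853 to 0.951. Without wild-type spg-7 RNAi arrays 3 and 1, r was 0.806 to 0.950. Of the 9 collagens called in wild type, 4 were in this set of 15, none in the col-19 set and 5 among the other 70. The set was chosen by its likeness to col-49, a called gene, over these same arrays. Its shared fall in wild type, its calls and its medians follow in part from that choice and are a description only.

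The col-49 set had median log2 signals of 11.96, 11.80 and 13.01 on the wild-type control arrays and of 11.01, 11.17 and 10.06 on wild-type spg-7 RNAi. The mutant had 13.05, 13.05 and 11.03 on control RNAi against 12.40, 11.73 and 12.20 on spg-7 RNAi. Wild-type spg-7 RNAi array 3 was the lowest of the 12 and mutant control array 3 the lowest of its genotype, and the 3 arrays low in yolk signal had 11.96, 11.01 and 11.73. The median differences were -1.54 in wild type and 0.19 in the mutant. Without mutant control array 3 the mutant median was -0.38 and all 15 genes had a negative mutant difference, so the sign of the median rests on that array. col-49 was itself low on that array, and the set was chosen by likeness to col-49. The shared downward move without the array therefore follows in part from the choice. On spg-7 RNAi the mutant exceeded wild type by a median of 1.51, a comparison that array does not enter.

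The remaining stage-linked members were not called. col-2, known as a collagen of the dauer larva, had 184, 134 and 154 in wild type on control RNAi against 91.0, 53.2 and 71.7 on spg-7 RNAi. The groups did not overlap, and the difference was -1.15 (SE 0.37, adjusted p = 0.102). The mean log2 signal of col-2 in wild type on spg-7 RNAi was 6.13, below the inclusion limit. The gene passed through its higher groups, so the size of this difference is uncertain. The differences in wild type of col-12, col-17 and col-34 were -0.56, -0.62 and -1.31 (adjusted p = 0.303, 0.231 and 0.111), and all 3 were measured on probe sets marked x, which can also bind other transcripts.

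col-120 had 529, 3052 and 4111 in wild type on control RNAi against 691, 820.3 and 529 on spg-7 RNAi. Control array 1 lay among the spg-7 RNAi arrays, and the difference of -1.49 was not called (SE 0.71, adjusted p = 0.270). Without wild-type control array 1 it was -2.40 (adjusted p = 0.0193). col-137 also had a low control array 1, with 27.6, 2146 and 1726 on control RNAi against 177, 169 and 237 on spg-7 RNAi. Its difference of -1.28 (adjusted p = 0.641) became -3.32 (adjusted p = 0.00465) without that array, and it is named here after its values were seen.

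The collagens with the highest signals, col-93, col-125, col-119, col-160 and col-73, were not called in either genotype. All 5, and all 13 members with a mean log2 signal of 14 and above, are on probe sets marked x, so their signals may include those of related collagens. In wild type, col-93 had 42180.4, 33720.0 and 44236 on control RNAi against 46178, 38616 and 24989.8 on spg-7 RNAi. These groups overlapped, with a difference of -0.17 (SE 0.30, adjusted p = 0.817). The other 4 had wild-type differences of -0.40, -0.21, -0.07 and -0.64, and none was called. Among those 13 the median difference was -0.57 and none was called, beside a median of -0.22 for the 121 genes of that range. The medians were -1.10 for the 28 members from 12 to 14, -1.16 for the 30 from 9 to 12 and -1.09 for the 26 under 9.

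The members near the limit of inclusion were dim in some groups. col-69 had 109, 88.2 and 106 on wild-type control RNAi against 60, 15.2 and 15.8 on spg-7 RNAi, which do not overlap, and its difference was -2.05 (SE 0.60, adjusted p = 0.0802). The differences of col-131 and col-172 were -1.02 and -1.66 (adjusted p = 0.274 and 0.307).

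Of the 97, 52 were measured on probe sets not marked as binding several transcripts, 25 on sets marked s and 20 on sets marked x. Collagen genes resemble each other, so members on the marked sets may share signal. The 17 probe sets naming several collagens were not tested. In wild type 16 of them had a negative difference, the 1 positive being that of col-179 and col-178 at 0.51, and the median was -0.46. In the mutant 11 were positive and the median was 0.11. The one for col-162 and col-161 had a wild-type difference of -1.59 and a mutant difference of -0.23, and the one for col-127 and col-126 had -1.69 and -1.68. For col-62 and col-7, both described for the adult cuticle, the signals were 333, 8288 and 5364 on wild-type control RNAi against 1821, 2564 and 1456 on spg-7 RNAi. Control array 1 was far below arrays 2 and 3 there, as in the col-19 set. In the mutant, that probe set had 11712, 10016 and 7699 on control RNAi against 4885, 1678 and 6139 on spg-7 RNAi, and the groups did not overlap.

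In all, 6 members had a further single-gene probe set above the limit. In 4 of the 6 the wild-type difference had the same sign on both probe sets, and in col-119 and col-160 it did not. In the mutant the sign was the same in all 6. For col-97 the further probe set gave -1.09 in wild type where the one used gave -1.60, and for col-109 it gave -1.37 where the one used gave -1.40.

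The members include 7 pairs that are next to each other among protein-coding genes in the RefSeq annotation. col-149 and its neighbour col-150 had wild-type differences of -2.04 and -1.09 and mutant differences of -0.98 and -1.06. col-20, of the col-19 set, lies between col-17 and col-73, which followed other patterns, with r over the arrays of -0.59 and -0.54. Its wild-type difference was 0.48, and those of its neighbours were -0.62 and -0.64.

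Cuticle collagens named for their mutant phenotype (dpy, rol, sqt, bli, lon and ram genes) shape the body and the furrows and struts of the cuticle, and 17 of 20 on that list were measured. None was called in any of the 6 comparisons. In wild type 16 of the 17 had a negative difference (median -0.85), and in the mutant all 17 had a positive one (median 0.72), with the groups not overlapping in 2 and 5 of them, against 8.48% and 13.1% of all genes. On control RNAi the difference of mutant minus wild type was negative in all 17 (median -1.13). The mutant medians of the list were 10.71, 11.18 and 9.67 on control RNAi against 10.81, 12.13 and 11.42 on spg-7 RNAi. Control array 3 was the lowest of these and spg-7 RNAi array 2 the highest, so the mutant response rests in part on them. dpy-7, a collagen of the annular furrows, had 4121, 357 and 1656 in wild type on control RNAi against 965, 1205 and 409.7 on spg-7 RNAi, which overlap. bli-1, a collagen of the adult struts, had 7011, 644 and 3149 on control RNAi against 1042, 1197 and 305 on spg-7 RNAi, with a wild-type difference of -1.74 (adjusted p = 0.213).

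The phenotype-named collagens and the col-19 set ran in opposite order over the wild-type control arrays. On wild-type control arrays 1, 2 and 3 the former had median log2 signals of 12.78, 10.39 and 12.34, and the latter had 8.70, 13.89 and 13.44. The yolk genes were lowest on array 1 and highest on array 2, as the col-19 set was.

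**Figure D4:**
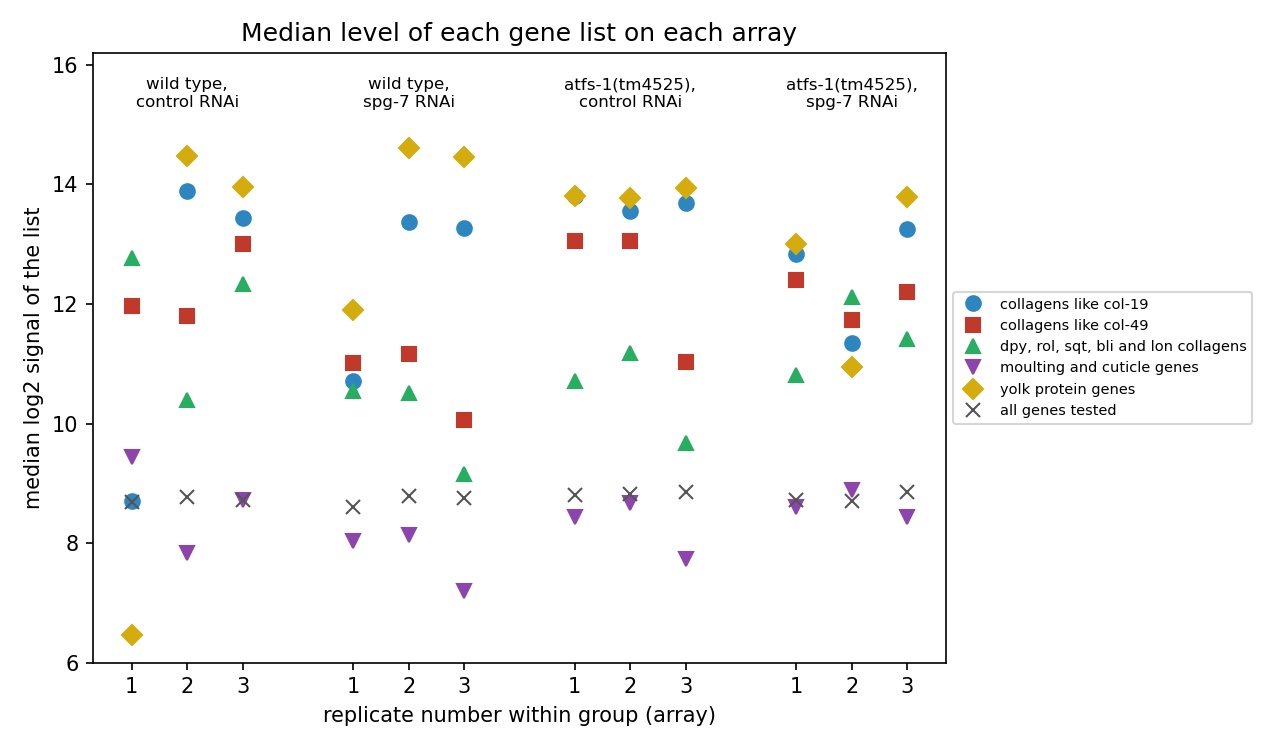
Median log2 signal of 6 gene lists on each of the 12 arrays, by group and replicate number. On wild-type control array 1 the yolk genes (6.46) and the collagens like col-19 (8.70) are low while the phenotype-named collagens (12.78) and the moulting genes (9.43) are high, and on wild-type spg-7 RNAi the collagens like col-49 lie between 10.06 and 11.17.

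Of the genes that modify, fold, cut and crosslink collagen, 24 of 26 were measured and none was called. Their median differences were -0.45 in wild type and 0.18 in the mutant. dpy-18, a catalytic subunit of prolyl 4-hydroxylase, had 4421, 2394 and 2851 in wild type on control RNAi against 1457, 1941 and 1249 on spg-7 RNAi. The groups did not overlap, and the difference was -1.03 (adjusted p = 0.133). bli-3, the dual oxidase that crosslinks the cuticle, had a difference of -0.78 (adjusted p = 0.232).

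Genes of moulting and cuticle assembly gave 52 of 75 measured and no call. In wild type 48 of the 52 had a negative difference (median -0.76), and in the mutant 46 had a positive one (median 0.61). In the mutant the list's median log2 signals were 8.44, 8.67 and 7.73 on control RNAi against 8.60, 8.89 and 8.44 on spg-7 RNAi. Control array 3 was the lowest of these, so the mutant differences rest in part on it. mlt-10, a secreted protein of the moulting cycle, had 1556, 391 and 1493 in wild type on control RNAi against 295.5, 414 and 117 on spg-7 RNAi. Its groups overlapped through control array 2, and the difference was -1.99 (adjusted p = 0.0981). nhr-23, the nuclear receptor needed for moulting, had a difference of -0.32 (adjusted p = 0.648).

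Collagens of the basement membrane were also measured. emb-9 and let-2, the type IV collagen chains, had wild-type differences of -0.08 and -0.65 (adjusted p = 0.922 and 0.307) and none was called. Of 9 measured markers of hypodermis and seam, the tissue that makes the cuticle, none was called and the median was -0.13 in wild type. Of 14 body wall muscle markers 1 was lower in wild type, mup-2 at -1.12 (adjusted p = 0.0183), where 1.43% of all genes were. In all 13 of the 14 had a negative difference (median -0.59), 8 had an unadjusted p under 0.05 and 5 did not overlap, against 8.48% of all genes. Of 8 intestine markers 1 was higher, ges-1 at 1.55 (adjusted p = 0.0393), where 3.29% of all genes were. Of the 8, 7 had a positive difference (median 0.41) and 2 did not overlap, against 9.99% of all genes. The part of these tissues in the collagen differences was not tested. Of 9 neuron markers 1 was higher, snb-1 at 0.84 (adjusted p = 0.0492), where 3.29% of all genes were. Of the 9, 5 had a negative difference and 4 a positive one (median -0.25).

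Reproductive markers bear on stage. None of the 18 oocyte and embryo markers, 5 yolk genes or 23 sperm genes was called in wild type or in the mutant. The median differences were 0.37, 1.95 and -0.07 in wild type and -1.15, -1.19 and -0.07 in the mutant. rme-2, the yolk receptor of oocytes, had 372, 3950 and 1545 in wild type on control RNAi against 245, 1975 and 5439 on spg-7 RNAi. It was lowest on array 1 of both groups, as yolk genes were. The part of these markers in the collagen differences was not tested.

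Among genes outside the collagen lists, fbxa-218 had the level most like the median of the 97 over the 12 arrays, with Pearson's r of 0.98 and Spearman's rho of 0.92. It was followed by Y47D7A.15, F57H12.5, Y69E1A.8 and ZK1010.5, with r of 0.96, 0.96, 0.95 and 0.95. For col-19 the closest were C35B1.4 with 0.97, the yolk gene vit-5 with 0.97, nas-20 with 0.97, spig-20 with 0.96 and snf-9 with 0.96.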

How the data were processed

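The 12 arrays were used as deposited: a signal intensity per probe set on a linear scale, made by the authors with MAS5, per the submitters' processing notes, whose version and settings are not given in the sources used here. Of 22625 probe sets, 77 controls were set aside. Signals were floored at 1 (0.508% of values) and taken to log2, and the dimmest 40% by mean were left out. Each gene was represented by its brightest single-gene probe set. A model with 1 mean per group was fitted to all 12 arrays and 10385 genes with limma 3.58.1 (R 4.3.3, data.table version 1.17.8, variance trend, 8 residual degrees of freedom), and genes with a Benjamini-Hochberg adjusted p under 0.05 within a comparison were called. SE is the model's standard error of a log2 difference. Array number, 3 per group, limits the precision. The scripts were tested on simulated data.

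The collagens and all gene lists were chosen with earlier results of these data known. Genes were named by rule: called members, the brightest, the most and least variable, those at the inclusion limit, 16 stage-linked or well-known col- genes, and fixed genes of the other lists. Others that illustrate a pattern, such as the largest mutant differences on spg-7 RNAi, were named after their values were seen. Deviations of same-numbered arrays correlated at -0.66 to 0.66, above 0.1 in 11 of 18 pairs. Only between the mutant groups were all 3 above 0.1 (0.29 to 0.53), so the blocked value is given beside the mutant response, and elsewhere numbers were not taken as pairs. Alternatives were quantile normalisation, 32 added before log2, no filter, no s or x probe sets, a fit to the compared groups only, a replicate block, and leaving out arrays. Promoters were not analysed here. Gene symbols came from the array's annotation, and 97 of 97 matched those in RefSeq (WBcel235). Neighbours and pseudogene status came from RefSeq. Plots used matplotlib 3.10.9 (Python 3.11.15).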

Additional observations from a re-analysis of the deposited data

Results flagged for a closer look

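col-110 moved in opposite directions in the 2 genotypes with no overlap in either. Its signals in wild type were 1383, 371 and 1089 on control RNAi against 260.5, 364 and 107 on spg-7 RNAi, a difference of -1.93 (SE 0.60, limma adjusted p = 0.0939). In the mutant they were 151, 402 and 187 on control RNAi against 623, 1046 and 436 on spg-7 RNAi, a difference of 1.55 (SE 0.60, adjusted p = 0.415, or 0.0069 in the fit to mutant arrays with the replicate block). The difference between the responses, mutant minus wild type, was 3.48 (SE 0.85), with an adjusted p of 0.573 over all genes, so it did not pass. The nearest arrays of the 2 wild-type groups, at 371 and 364, were almost equal. Its probe set is marked s.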

How the results depend on the processing

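In wild type the count of 9 lower collagens was 6 after quantile normalisation, 8 with 32 added, 6 with no filter and 7 of 53 members without s and x probe sets, and 0 in the fit to wild-type arrays only. With the replicate block it was 9, of which 8 were shared. Leaving out 1 array gave 1 to 18: 14 without control array 1 and 1 without control array 3 of wild type, 2 and 3 without its spg-7 RNAi arrays 2 and 3, 4 and 18 without mutant control arrays 2 and 3, and 3, 4 and 3 without mutant spg-7 RNAi arrays 1, 2 and 3. The mean of both genotypes, 2 in the report, gave 4 with the replicate block and 1 to 12 with 1 array left out: 11 without wild-type control array 1, 5 without wild-type spg-7 RNAi array 1, 12 without mutant control array 3, and 1 without wild-type control array 3, wild-type spg-7 RNAi array 2, mutant control array 1 or 2, or any mutant spg-7 RNAi array. On spg-7 RNAi, mutant against wild type, the count of 0 became 1 (col-89) in the fit to those groups only and 0 to 11 with 1 array left out, 11 without wild-type control array 1 and 1 (col-89) without mutant control array 3. The mutant response was 1 (col-149) in the fit to mutant arrays only and 11 in that fit with the replicate block. The interaction and the genotype difference on control RNAi stayed at 0 in every setting run. Only between the mutant groups did all 3 same-numbered pairs of arrays correlate above 0.1, though single pairs elsewhere reached 0.66. The labels do not say what arrays of the same number share. The block in the fit to all arrays changed no other count by over 1.5 times.

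The blocked fit to mutant arrays and 2 further settings were added after seeing the data. Without the 3 arrays low in yolk signal the counts were 14 in wild type (4 shared with the 9), 10 for the mean and 5 on spg-7 RNAi. Without wild-type control array 1 and wild-type spg-7 RNAi array 3 together they were 12 (6 shared), 13 and 4. The counts of this section are given without the share of all genes called in each setting, so they do not single out the collagens. None of the 9 and 2 collagens called over all arrays changed sign in any setting, while col-139 and col-81, uncalled at 0.16 and 0.17 in wild type, were called lower without the 3 arrays. In wild type, col-149 kept its call in all 12 fits with 1 array left out, with adjusted p from 0.00371 to 0.0372, and col-182 lost it only without wild-type control array 3 (0.0616). The other 7 lost theirs in 5 to 10 of the 12. The cause was not tested. Having 3 arrays a group limits the precision, and dim members such as col-186 and col-69 lie near background in wild type fed spg-7 RNAi.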
